A study of Mus musculus with 5 samples.

Results

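The genes CT010467.1, Gm12374, Malat1, Mir6236, Snord49b and Gm23935 were examined, which are 6 of the 10291 genes listed in the count tables. They are ribosomal, long noncoding, nucleolar and microRNA-type genes. They were chosen by name, with their counts in these tables known, so their sums, shares and ratios are given as descriptions without a test. In the colon, 4 of the 6 were listed in controls and 6 after light, and in the lymph node 5 and 6. Of all 10291 genes, 2366 and 6735 were listed in these colon libraries, and 3636 and 5770 in those of the lymph node.

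CD4 T cells of mice with autoimmune colitis were sorted from 2 tissues, colon and lymph node, with or without exposure of the animals to near-infrared laser light. Each tissue has a control and a light group. Light means 980 nm at 1.22 W, 80% duty and a spot of 4 cm2, for 5 minutes every 2 days, and controls carry the label control with no further treatment named. Strain, age, genotype and the number of animals behind a library are not stated in the sources used here. Each group has 1 library, so differences have no replicate check and are given without p-values. Poly(A) RNA was captured with an oligo-dT probe that carries a barcode of 7 bases and a molecular identifier.

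A ribosome is built on ribosomal RNA, which RNA polymerase I transcribes in the nucleolus as a long precursor and which makes up most of the RNA of a cell. Small nucleolar RNAs of the C/D box class, to which Snord49b belongs, guide the methylation of ribosomal RNA and are usually cut out of the introns of host genes. Malat1 is a long noncoding RNA that stays in the nucleus, at nuclear speckles, and is abundant in nearly all cell types, lymphocytes among them. MicroRNA genes give hairpin precursors that are cut to short mature RNAs which pair with messenger RNAs. Mature ribosomal RNAs, small nucleolar RNAs and microRNAs carry no poly(A) tail of the kind messenger RNAs have. Counts per 1000000 (CPM) divide each gene by the library's total, so a few very abundant RNAs set the scale on which every other gene is read.

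CT010467.1 (ENSMUSG00000106106.2) is annotated as a ribosomal RNA gene at chr17:39846353-39848827 on the minus strand of mm10. It carries the working name 45S ribosomal RNA, but its longest annotated transcript has 1849 bases, and the first 1244 of them are the exact reverse complement of Gm42418, a long noncoding gene on the plus strand. The stretch around the end of that shared part is shown because it marks what the strands share, with the bases shared with Gm42418 in capitals (chr17:39846928-39846987, minus strand). Read on the opposite strand, these bases are the sense sequence of 18S ribosomal RNA, as background knowledge of that molecule.
CT010467.1: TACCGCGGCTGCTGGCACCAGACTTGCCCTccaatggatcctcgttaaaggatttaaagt
Gm42418, the overlapping AY036118 and the neighbour Gm26917 have a row in 0 of the 4 tables. The sources used here do not say whether counting used strand, so reads from the 2 strands of this locus cannot be told apart.

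Gm23935 (ENSMUSG00000076258.1) is annotated as a microRNA gene of 57 bases at chr16:11144125-11144181, on the plus strand, inside an intron of Zc3h7a, which lies on the minus strand. Its 57 bases are identical to those of Gm24245 on chromosome 4 and Gm24270 on chromosome 9, and Gm24187 on chromosome 13 differs by 1 base, G11A, counted from the 5′ end. Both versions are shown because reads can fall to any of the copies, with the base that differs in capitals (Gm24187 at chr13:9834469-9834525, minus strand).
Gm23935: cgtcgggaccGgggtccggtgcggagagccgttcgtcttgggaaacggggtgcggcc
Gm24187: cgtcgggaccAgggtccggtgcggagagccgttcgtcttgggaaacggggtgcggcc
Of these copies only Gm24270 has a row, with a summed count of 87 in the lymph node control table, which is 1 molecule. The counts of Gm23935 are therefore uncertain as to locus. Matches outside the annotated transcripts, those to ribosomal DNA repeats among them, were not searched for, so the origin of these reads was not tested.

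Mir6236 (ENSMUSG00000098973.1) is annotated as a microRNA gene. Snord49b (ENSMUSG00000064437.1) is a small nucleolar RNA gene of 72 bases at chr11:62603079-62603150, on the plus strand in an intron of 2410006H16Rik, a noncoding host gene that also holds Snord49a and Snord65. Gm12374 (ENSMUSG00000086026.1) is a long intergenic noncoding gene at chr4:37249403-37332515 on the plus strand, with 1 annotated transcript of 3299 bases. Malat1 (ENSMUSG00000092341.3) lies at chr19:5795690-5802672 on the minus strand, and its longest transcript has 6983 bases. Snord49b, Gm12374 and Malat1 each hold a run of at least 8 A (AAAAAAAA), the letters that pair with an oligo-dT probe, and the whole of Snord49b and a window of the long genes are shown with that run in capitals.
Snord49b: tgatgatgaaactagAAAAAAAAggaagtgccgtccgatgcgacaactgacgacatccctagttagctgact
Gm12374: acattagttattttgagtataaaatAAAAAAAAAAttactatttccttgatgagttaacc
Malat1: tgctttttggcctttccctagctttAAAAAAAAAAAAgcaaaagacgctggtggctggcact
The window of Gm12374 is chr4:37331500-37331559 and that of Malat1 is chr19:5795963-5796024. The run measures 8 bases in Snord49b, 10 in Gm12374 and 12 in Malat1. Such a run is found in 44 of 6124 annotated transcripts of up to 150 bases (0.718%), in 29.2% of those over 2500 and up to 4500 bases and in 46.0% of those over 4500 and up to 9500 bases. CT010467.1 and Gm23935 hold none, and their longest runs of A have 4 and 3 bases. On the other strand, as TTTTTTTT, Gm12374 holds 1 run (19 bases), Malat1 holds 3 runs, the longest of 9 bases, and Snord49b, CT010467.1 and Gm23935 hold none. These matches describe letters in the annotated transcripts only.

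Snord49b has the C box letters TGATGA at bases 1 to 6 and the D box letters CTGA at bases 67 to 70. TGATGA occurs again in an overlapping match just after, and which match is the C box was not decided. On the given strand, TGATGA was found in the first 15 bases of 20.6% of 1507 annotated small nucleolar RNA transcripts. CTGA was found in the last 15 bases of 31.4% of them. Under a blastn search with an E-value limit of 1e-05, Snord49b resembled the transcripts of 0 other genes, Gm23935 those of 5, and CT010467.1 those of 3. These matches covered 100% of Gm23935 and 67.3% of CT010467.1. Gm12374 resembled transcripts of 534 other genes over 30.7% of its length, the longest match at 73.1% identity. Malat1 resembled those of 6335 other genes over 8.49% of its length. The longest matches of CT010467.1 (Gm42418, 1244 bases) and Malat1 (Gm37376, 453 bases) were genes on the opposite strand of the same locus. Low-complexity sequence was not masked in the search.

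The deposited counts summed to between 435847 (colon control) and 1959296 (colon light). Barcode columns of a table share molecules, and a count was divided by the number of columns in which a molecule is typically counted (49.9 to 84.5), which gave molecule-equivalents. They numbered 6180 in the control and 39297 in the light library of the colon, and 11499 and 21214 in those of the lymph node. Intervals are exact 95% Clopper-Pearson intervals computed from molecule-equivalents, and they hold counting error alone. A floor of 3 molecule-equivalents, the limit that a count of 0 allows, was 485 CPM in the colon control and 76.3 to 261 CPM in the others. The colon control stands apart: it shares at most 5 barcodes with another table while the other tables share at least 373 pairwise, and its T-cell markers were at 0.0341% of counts (3 of 8 genes with a count). The list has 12 genes, but in the colon control the lines of Cd4, Cd3d, Cd3e and Cd3g were left out. They repeated those of another table by column position. Their deposited sums were 471, 984, 131 and 576, so the low share in the colon control depends on leaving them out. Over the same 8 genes, T-cell markers took 0.2185% in the colon light library, and 0.717% and 0.587% in the control and light libraries of the lymph node, with 7 of 8 genes each. Epithelial markers were at 0 in every library (0 of 8 genes). Myeloid markers took 0.0618% in the control and 0.201% in the light library of the colon, and 0.0179% and 0.0434% in those of the lymph node, and B and plasma cell markers between 0.00204% and 0.0355%. The part of these marker levels in the results below was not tested. Fewer cells of a type and less RNA per cell cannot be told apart in these libraries.

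The 6 RNAs together took 22.9% (21.8 to 23.9) of counts in the control and 32.0% (31.5 to 32.5) in the light library of the colon, and 14.5% (13.8 to 15.1) and 16.9% (16.4 to 17.4) in those of the lymph node. The share was thus highest in the colon light library. It was lowest in the lymph node control as a share of all counts, but as a median over barcode columns the lymph node control stood at 15.2% and the lymph node light library at 14.6%. CT010467.1 and Gm12374 made up 99.1%, 96.5%, 89.4% and 92.4% of these sums, and the other 4 genes between 0.205% and 1.54% of a library. By class, CT010467.1 held between 99.8% and 100% of what is annotated as nuclear ribosomal RNA. Gm12374 and Malat1 held 78.1% of long noncoding counts in the control and 71.6% in the light library of the colon, and 69.0% and 47.4% in those of the lymph node. Mir6236, Snord49b and Gm23935 held 12.1%, 45.7%, 24.1% and 36.1% of the counts of small noncoding genes, a class that took between 0.208% and 0.787% of a library.

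**Figure D1:**
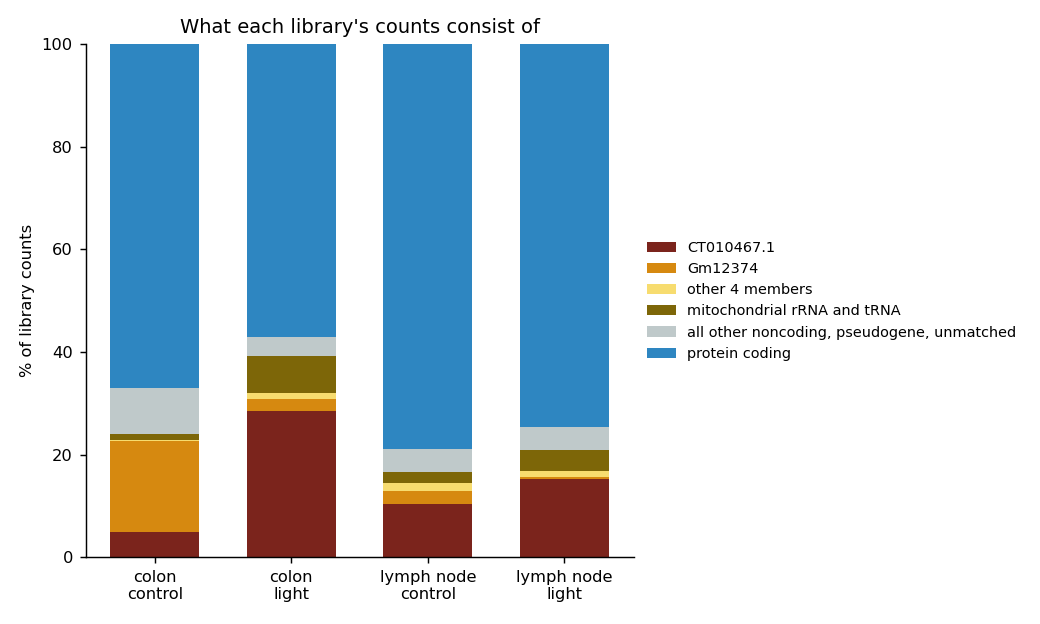
Share of each library's counts (y axis, percent) by kind of RNA, with 1 stacked bar per library. CT010467.1 is the largest member in every library but the colon control, where Gm12374 takes 17.7%, and protein-coding genes take between 57.0% and 78.9%.

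CT010467.1 took 5.02% of counts (4.49 to 5.59) in the control and 28.4% (28.0 to 28.9) in the light library of the colon, and 10.5% (9.91 to 11.04) and 15.3% (14.8 to 15.8) in those of the lymph node. It was the row of highest count in 3 of the libraries and of second rank in the colon control. In both tissues the light library was the higher one, and the 4 intervals do not overlap. The log2 ratio of CPM, light over control, was 2.502 (2.34 to 2.67) in the colon and 0.55 (0.45 to 0.65) in the lymph node. The colon control was lower than the lymph node control by a log2 ratio of -1.06 (-1.25 to -0.88), and the colon light library was higher than the lymph node light library by 0.89 (0.84 to 0.95). Both tissue ratios lie near the 2-fold limit, and the scaling decides on which side. With size factors taken as the median of ratios, the first was -0.70 and the second 1.14, and with the 6 RNAs left out of the totals they were -0.91 and 1.18.

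Gm12374 took 17.7% of counts (16.7 to 18.6) in the colon control, where it was the row of highest count. It took 2.47% (2.32 to 2.63) in the colon light and 2.45% (2.17 to 2.75) in the lymph node control library, values whose intervals overlap. In the lymph node light library it took 0.299% (0.230 to 0.383) and ranked 21. Its order is the reverse of that of CT010467.1 within each tissue: the control library was higher in both. The light over control ratio was -2.84 (-2.96 to -2.71) in the colon and -3.02 (-3.45 to -2.63) in the lymph node. Colon over lymph node, the ratio was 2.85 (2.66 to 3.04) in controls and 3.04 (2.68 to 3.43) after light. The intervals of the 2 ratios for light overlap, as do those of the 2 ratios for tissue, and the difference between tissues in the response to light was not tested. In molecule-equivalents, Gm12374 had 1091 of 6180 in the colon control and 970 of 39297 in the colon light library. Ranks 3 to 6 of the colon control were Trpc7 (3.66%), Tgm6 (3.00%), Lrig2 (2.70%) and Cfap44 (2.61%). Actb stood at 860 CPM there, against 8061 CPM in the colon light library. Whether the colon control value of Gm12374 is that of CD4 T cells was not tested.

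Malat1 took 0.180% (0.0905 to 0.321) of counts in the control and 0.755% (0.672 to 0.845) in the light library of the colon, and 1.48% (1.26 to 1.71) and 1.14% (1.00 to 1.29) in those of the lymph node. Both lymph node libraries were higher than both colon libraries. The value in the colon control rested on 11.1 molecule-equivalents, and the others on 170 to 297. Light over control, the log2 ratio was 2.05 (1.21 to 3.08) in the colon and -0.37 (-0.66 to -0.08) in the lymph node. Malat1 was lower in the colon than in the lymph node, by -2.99 (-4.06 to -2.16) in controls and by -0.59 (-0.85 to -0.34) after light. Gm37376, an unclassified model on the opposite strand of the gene, had a summed count of 28, in the colon light table alone.

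Gm23935 stood at 0.0251% (0.00194 to 0.105) in the control and 0.174% (0.135 to 0.220) in the light library of the colon, and 0.0317% (0.00796 to 0.0846) and 0.120% (0.0783 to 0.177) in those of the lymph node. In the recovered molecules this was 3 in the colon control, and 5 and 28 in the control and light libraries of the lymph node. The colon light row could not be solved exactly, and its fit gave 85.4. Both light libraries were higher than both control libraries, and within each tissue the counting intervals of light and control overlapped in the lymph node and did not in the colon. The ratio of light over control was 2.69 (0.67 to 6.51) in the colon, resting on 1.55 molecule-equivalents in the control, which is under the floor. The lymph node ratio was 1.83 (0.34 to 4.02). Between tissues the interval of the ratio included 0 in controls (-0.28, -4.44 to 2.73) and after light (0.52, -0.15 to 1.25), and in controls its sign turned to 0.079 with median-of-ratios scaling. Zc3h7a, the gene around it, had summed counts of 113, 143, 68 and 98 in the 4 tables in the same order.

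Snord49b was listed at 0 in the colon control, which allows a share of up to 0.0485% by the floor of 3 molecule-equivalents and up to 0.0597% by the Clopper-Pearson interval, a limit that overlaps the interval of the colon light library. It took 0.0805% (0.0550 to 0.114) in the colon light library, and 0.0286% (0.00651 to 0.0800) and 0.00477% (0.000126 to 0.0264) in the control and light libraries of the lymph node. These were 34, 3 and 1 recovered molecules. The colon light value was the highest, and the 2 lymph node values rest on so few molecules that their order is not resolved (log2 ratio of light over control -2.02, -8.21 to 0.94). Against the floor in the colon control, the counted value of Snord49b was at least 1.66-fold higher in the colon light library, and with the counting error of both libraries the lower limit of the log2 ratio was 0.35. Colon light over lymph node light, the ratio was 3.68 (1.51 to 9.37), with the lymph node value under the floor. Its host gene 2410006H16Rik had summed counts of 0 in the control and 1043 in the light library of the colon, and 171 and 146 in those of the lymph node. It was higher in the colon light than in the lymph node light library by 1.84 (0.20 to 4.40), and its order within the lymph node is not resolved either (-0.31, -3.53 to 3.21). The other small nucleolar RNAs of that host, Snord49a and Snord65, were listed in 0 tables.

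Mir6236 was listed at 0 in both controls, which allows up to 0.0485% in the colon and 0.0261% in the lymph node by the floor, and 0.0597% and 0.0321% by the Clopper-Pearson interval. It took 0.106% (0.0759 to 0.143) in the colon light and 0.0121% (0.00207 to 0.0382) in the lymph node light library, or 42 and 3 recovered molecules. Against the floor in the colon control, the counted value of Mir6236 was at least 2.17-fold higher in the colon light library, and with the counting error of both libraries the lower limit of the log2 ratio was 0.76. The lymph node light value was itself under the floor, so no fold is given there. Colon light over lymph node light, the ratio was 2.97 (1.37 to 5.73), resting on 2.56 molecule-equivalents in the lymph node.

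**Figure D2:**
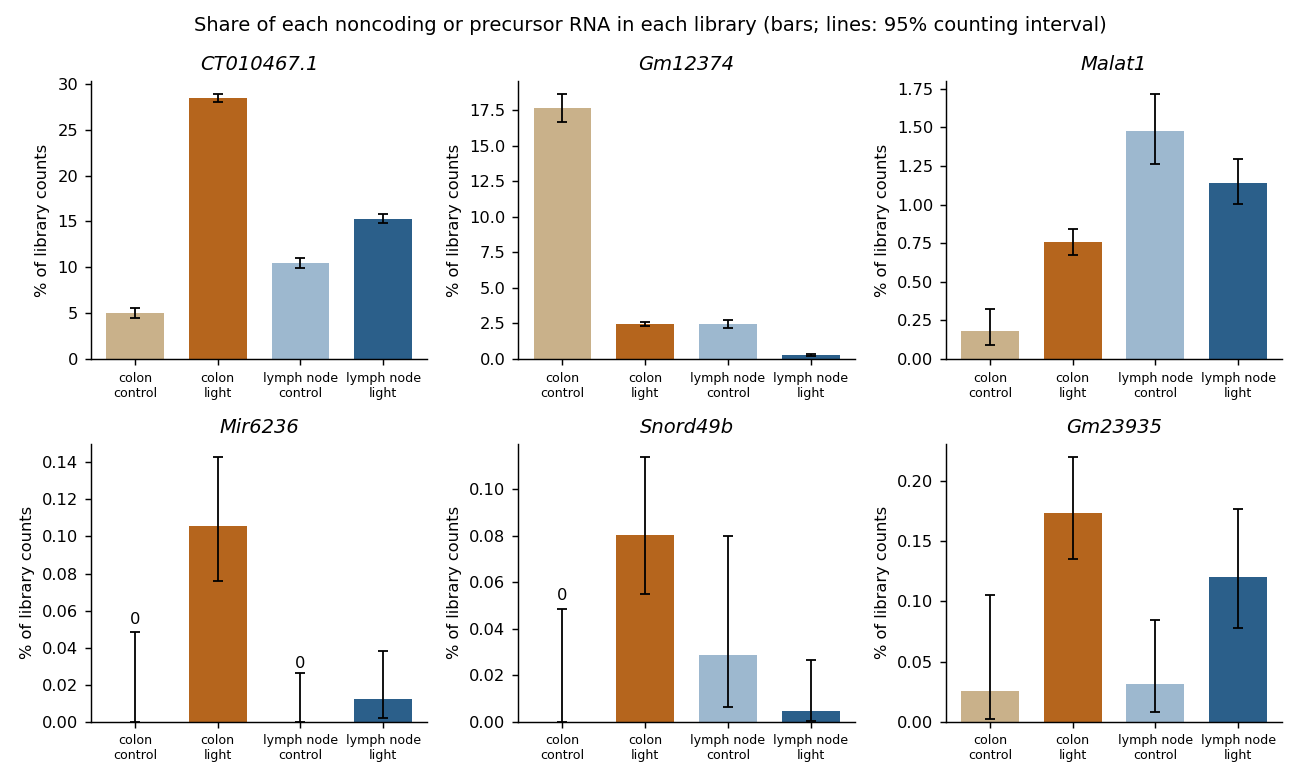
Share of library counts (y axis, percent, a scale per panel starting at 0) of each of the 6 RNAs in the 4 libraries, with 95% counting intervals, and for a count of 0 a line up to the limit it allows. CT010467.1 and Gm23935 are higher in the light library of each tissue, and Gm12374 is higher in the control library of each tissue.

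Because the 6 genes differ in length from 57 to 6983 bases, levels between genes were set side by side as CPM per kilobase of annotated exon. On that scale the colon control was led by Gm12374 at 53503, followed by CT010467.1 at 20344, Gm23935 at 4410 and Malat1 at 258. In the colon light library CT010467.1 stood at 115246, Gm23935 at 30480, Snord49b at 11186, Mir6236 at 8581, Gm12374 at 7483 and Malat1 at 1081. The lymph node control had CT010467.1 at 42448, Gm12374 at 7418, Gm23935 at 5564, Snord49b at 3976 and Malat1 at 2115. In the lymph node light library the values were 62118 for CT010467.1, 21108 for Gm23935, 1633 for Malat1, 981 for Mir6236, 908 for Gm12374 and 663 for Snord49b. CT010467.1 was thus first in 3 libraries and Gm23935 second in both light libraries. Tag counts from a probe at the poly(A) end need not scale with length, so this order depends on the unit. Some values also lie under the floor of 3 molecule-equivalents, and their places in the order are uncertain. These are Gm23935 in the colon control (1.55 molecule-equivalents), and Mir6236 (2.56) and Snord49b (1.01) in the lymph node light library.

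The values of single barcode columns were read as a range, since columns share molecules and are not replicates. CT010467.1 took between 0.927% and 13.1% of a column in the colon control (median 4.46%) and between 18.5% and 42.8% in the colon light library (median 24.8%). These ranges do not overlap. Lymph node ranges did overlap, at 7.64% to 18.6% in the control and 8.75% to 28.2% in the light library, with medians of 10.0% and 13.0%. Gm12374 took 7.92% to 29.1% of a column in the colon control, above its whole range in the colon light library (0.275% to 4.01%). Lymph node columns had 1.01% to 4.88% in the control, above its whole range after light (0% to 0.643%). Malat1 took 0% to 0.601% of a column in the colon control and 0.261% to 1.46% in the colon light library.

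**Figure D3:**
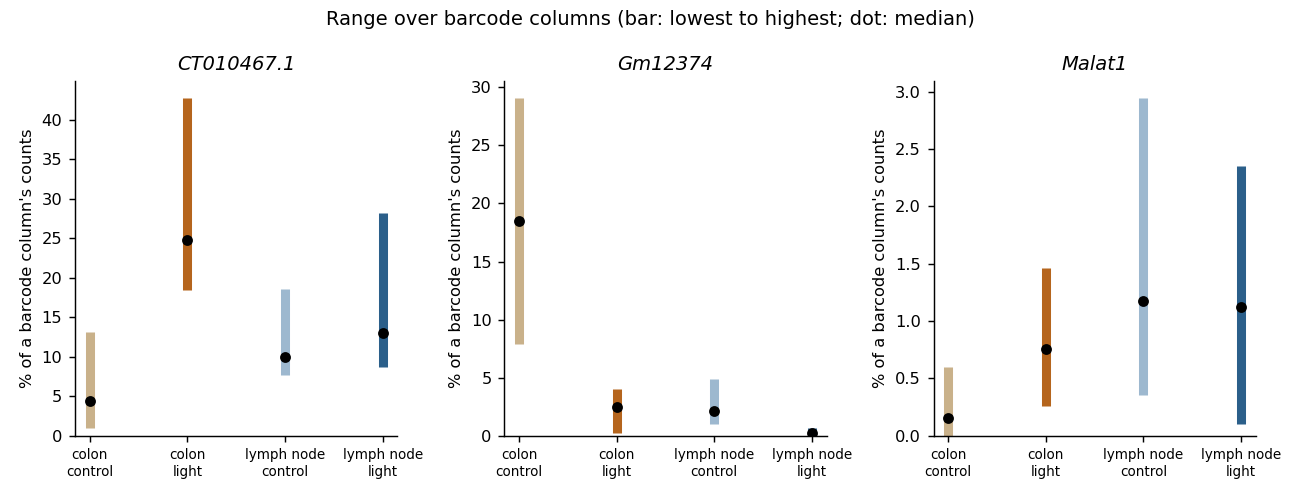
Range of the share of a barcode column's counts (y axis, percent) from the lowest to the highest column, with the median as a dot, for CT010467.1, Gm12374 and Malat1 in the 4 libraries. The colon control and colon light ranges of CT010467.1 and of Gm12374 do not overlap, and columns share molecules.

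The members' ratios were set beside those of all genes whose 2 libraries summed to 20 molecule-equivalents or more, with 2-fold as the limit. For light against control in the lymph node, 5.32% of 188 genes were higher by 2-fold or more and 5.85% lower, and of 4 members tested Gm23935 was higher and Gm12374 lower. In the colon, 75.5% of 208 genes were higher and 14.4% lower in the light library. All 6 members passed the filter there, with 5 higher and Gm12374 lower, and 2 of the 5, Mir6236 and Snord49b, rest on a 0 in the control. Of the 6, 4 had fewer than 20 molecule-equivalents in the control and passed through the light library alone. The median log2 ratio of these 208 genes was 2.18, beside 2.502, 2.05 and 2.69 for CT010467.1, Malat1 and Gm23935. The filter favours genes high in the deeper library of a pair, here the light one (39297 against 6180 molecule-equivalents). The 75.5% and this median therefore describe the genes that passed, not all listed genes. In the 2 controls, 29.2% of 89 genes were higher in the colon and 67.4% lower, and of 3 members tested Gm12374 was higher and CT010467.1 and Malat1 lower. After light, 13.5% of 304 genes were higher in the colon and 19.4% lower, and of 6 members Gm12374, Mir6236 and Snord49b were higher. Mir6236 and Snord49b passed the filter there through the colon light library alone, as Gm23935 did in the lymph node through the light library and Malat1 between the controls through the lymph node. The members were chosen with these values known, so nothing is read from the counts.

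Scaling matters for these backgrounds. Size factors by the median of ratios moved the median of the genes tested by 0.24 in the lymph node, 0.13 in the colon, 0.36 between controls and 0.25 between light libraries. For the lymph node, the 10 higher and 11 lower genes became 18 and 7, and between the light libraries the 41 higher and 59 lower genes became 50 and 37. With the 6 members left out of the totals the latter split was 51 and 37.

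**Figure D4:**
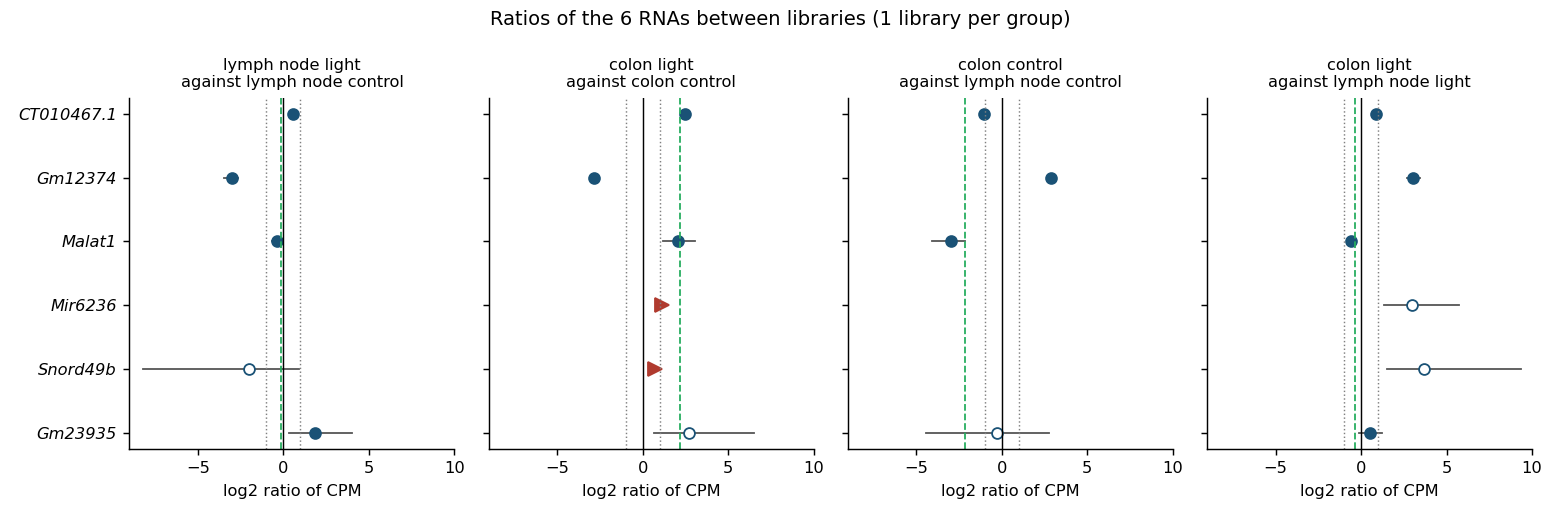
Log2 ratio of CPM (x axis) of each of the 6 RNAs in the 4 comparisons, with 95% counting intervals, open circles where a library is under the floor of 3 molecule-equivalents, and triangles for lower bounds against that floor. Dotted lines mark 2-fold and the dashed line the median of all genes tested, which is 2.18 for light against control in the colon, while Gm12374 lies at -2.84 there.

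Leaving the 6 RNAs out of the totals raised the CPM of each other gene 1.30-fold in the control and 1.47-fold in the light library of the colon, and 1.17-fold and 1.20-fold in those of the lymph node. What matters for a ratio is how far these differ between the libraries compared. For light against control in the lymph node, the ratio of CPM of every other gene, taken without a prior count, moved up by 0.042 on the log2 scale (0.028 to 0.056). CT010467.1 alone moved it by 0.080 and Gm12374 alone by -0.031, so the 2 worked in opposite directions. In the colon the shift was 0.18 (0.16 to 0.20), made up of 0.41 for CT010467.1 and -0.24 for Gm12374. Between the controls it was 0.15 (0.13 to 0.17), with Gm12374 at 0.24 and CT010467.1 at -0.085. After light, colon against lymph node, it was 0.29 (0.28 to 0.30), with 0.24 for CT010467.1 and 0.032 for Gm12374. Malat1 alone shifted a ratio by between -0.019 and 0.0083 in the 4 comparisons, and Mir6236, Snord49b and Gm23935 by at most 0.0021 each.

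The shift changed calls mainly between the light libraries. There, 38 of 298 other genes were at least 2-fold higher in the colon and 59 lower with the members in the totals, and 47 higher and 37 lower without them. This was 31 changed calls, of which 22 genes were no longer lower and 9 became higher, and leaving out CT010467.1 alone changed 29. Within the lymph node 3 of 184 calls changed, in the colon 5 of 202, and between the controls 0 of 86. Single genes changed more calls in the colon, 10 for CT010467.1 alone and 11 for Gm12374 alone. The same 2 genes changed 4 and 0 within the lymph node, and 2 and 1 between the controls. Among 6 messenger RNAs fixed as references, Actb, which encodes cytoplasmic beta actin, stood at 8061 CPM in the colon light and 11963 CPM in the lymph node light library, and at 11855 and 14396 without the members. Its log2 ratio went from -0.57 to -0.28. Tmsb4x, which encodes the actin-binding thymosin beta 4, went from -0.79 to -0.50, and Ptprc, which encodes CD45, from -0.65 to -0.36. B2m, which encodes the light chain of class I MHC, went from -0.46 to -0.17. Trbc2, which encodes a constant part of the T-cell receptor, went from -1.288 to -1.001. The ratio of Eef1a1 was positive with the members in the totals and rose from 0.11 to 0.39, further from no difference. Leaving the members out thus did not bring all the references closer together between these libraries. Within the lymph node Actb moved only from 0.017 to 0.059, and in the colon from 3.20 to 3.37. The prior count makes the move smaller for genes of low count: in the colon Trbc2 moved by 0.15 and Tmsb4x by 0.18.

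**Figure D5:**
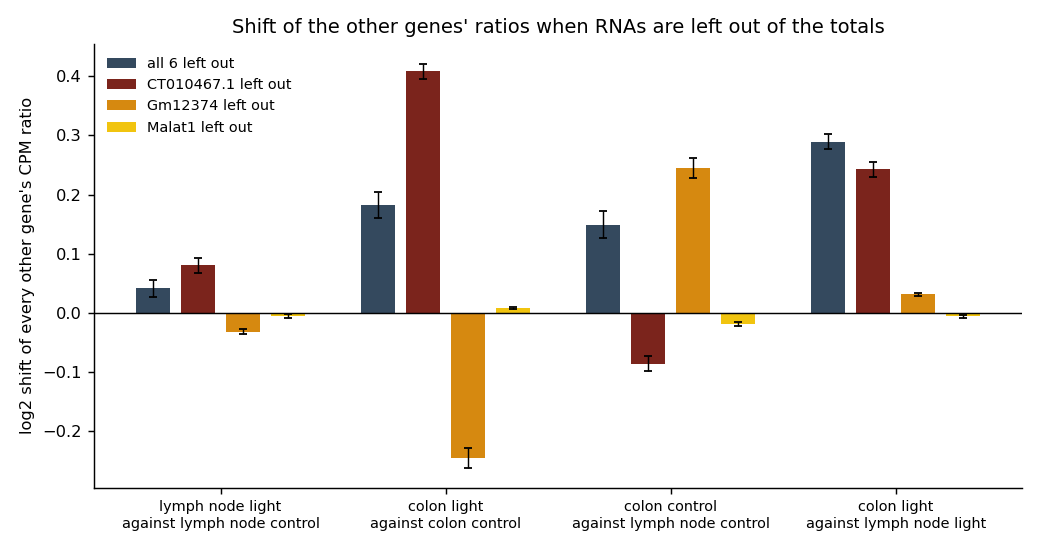
Shift of every other gene's log2 ratio (y axis) when all 6 RNAs or 1 of them are left out of the totals, by comparison, with 95% counting intervals. CT010467.1 and Gm12374 shift the ratios in opposite directions in 3 comparisons and in the same direction between the light libraries, where the total is 0.29.

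Other RNAs of the same kinds were read from lists that leave out the 6 members. Of 16 ribosomal RNA related genes, 3, 5, 3 and 4 had a count in the 4 libraries, and together they took 1.16%, 7.11%, 2.10% and 3.84% of counts, the same order as CT010467.1. Nearly all of that was mt-Rnr2 and mt-Rnr1, the ribosomal RNAs of the mitochondrion, which stood at 8908 and 2343 CPM in the colon control and at 53715 and 16775 CPM in the colon light library. Among lymph node libraries mt-Rnr2 stood at 17772 CPM in the control and 34061 CPM after light, and mt-Rnr1 at 3164 and 4127 CPM. Of 32 genes of ribosome synthesis, such as processing factors, 5, 17, 22 and 25 had a count in the colon control, lymph node control, lymph node light and colon light libraries. Of all 10291 genes, 2366, 3636, 5770 and 6735 were listed in the same order of libraries. The summed log2 ratio of the 32 genes, light over control, was -0.26 (-0.84 to 0.34) in the lymph node and 1.34 (0.27 to 2.71) in the colon. The median of 2.18 in the colon is that of 208 genes that passed the filter. Only 1 of the 32 passed it there, so the sum and that median are not alike. The lymph node interval of these messenger RNAs included 0, and 0 of the 32 passed the filter there. Their relation to CT010467.1 was not tested.

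Of all 10291 genes, 2366 were listed in the control and 6735 in the light library of the colon, and 3636 and 5770 in those of the lymph node. Of 16 other small nucleolar RNAs, 2 had a count in the control and 12 in the light library of the colon, and 4 and 10 in those of the lymph node. The most abundant in the colon light library was Snord118, the U8 RNA of large-subunit processing, followed by Snord89 and Snord82 with 7 molecules each. Snord118 had 0, 15, 1 and 3 molecules in the same order of libraries, and Snord82 had 4 in the lymph node light library. The sum of the 16 was 0.0818% of counts in the colon light library, against 0.0805% for Snord49b alone. In the lymph node light library it was 0.0751%, against 0.00477% for Snord49b. Of 7 other microRNA genes, 4 had a count in the colon light library, with 1 molecule each, against 42 for Mir6236. Of 21 other long noncoding RNAs, Gas5, a host of small nucleolar RNAs, was the most abundant in 3 libraries, with 793 CPM in the colon light library and 335 and 449 CPM in the control and light libraries of the lymph node. In the colon control Gas5 was at 0, and Miat, a long noncoding RNA, led at 406 CPM, which is 2 molecules and under the floor. Neat1, the scaffold of paraspeckles and the neighbour of Malat1 in the genome, stood at 118 CPM in the colon light library, and 105 and 169 in the control and light libraries of the lymph node. Among 1031 other unnamed gene models, the largest share was 0.908%, for Gm44588 in the colon control.

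Genes with the most similar pattern were found by the distance between log2 CPM values, each centred on its own mean over the 4 libraries, among 404 genes with at least 20 molecule-equivalents in all. With 4 points such likeness is a description only. For CT010467.1 the nearest were mt-Rnr2 (distance 0.29), Btg1 and the mitochondrial tRNA mt-Tf. Malat1 had the closest neighbours of all, Hmgb2 at 0.16, Arpc2 at 0.20 and Actg1 at 0.24, each on fewer than 3 molecule-equivalents in the colon control. For Gm23935 they were Tpr (0.64), mt-Co1 and mt-Rnr2. For Gm12374 the nearest were 9330162G02Rik (1.25), Hnrnpd and Slc31a1, so no gene followed it closely. Hnrnpd, which encodes an RNA-binding protein, stood at 5862 CPM in the control and 1040 in the light library of the colon, and 331 and 100 in those of the lymph node. Mir6236 was nearest to Prox1 (0.85), Pim1 and Sfpq. Snord49b was nearest to the class II genes H2-Eb1 (0.44) and H2-Ab1 and to Csnk1a1. These neighbours all have a 0 in the colon control. Prox1 and Pim1 were also at 0 in the lymph node control, with 2.28 and 3.53 molecule-equivalents after light. H2-Eb1 and H2-Ab1 had 2.26 and 2.23 in the lymph node control, and 0.853 and 1.41 after light. In the colon control Btg1, mt-Tf and Tpr had 1.67, 0.556 and 0.670.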

How the data were processed

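The deposited tables hold whole-number counts, a gene per line and 379 to 384 barcode columns per table. The submitters' processing notes name FastQC, STAR 2.5.1a and mm10. The counting tool and its strand setting are not given in the sources used here. A line without a gene name in both lymph node tables repeats the column totals (50.0% of all counts) and was left out, as were lines that repeat between tables (Foxp3 in every table, and in the colon control also Cd4, Cd3d, Cd3e and Cd3g). A line was taken as repeated when its correlation with another table by column position was over 0.5. Its fit by column patterns also had to leave a relative residual over 0.4. The 6 members and all gene lists were chosen with earlier results of these data known.

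Columns are overlapping sums of the same molecules. Patterns of columns held by 2 or more genes were fitted to each line with non-negative weights. The fit was exact for 92.6% to 96.7% of genes per library, which held 39.2% to 62.9% of its counts. Sums were divided by the weighted number of columns per molecule to give molecule-equivalents. Log2 ratios of CPM used a prior count of 0.5 scaled to depth. Genes with 20 molecule-equivalents over both libraries and a limit of 2-fold formed the background. All 6 members, related genes on fixed lists and the 3 nearest genes per member are named. The intervals and the pattern fit were checked on data simulated from the fitted patterns themselves, for the lymph node only. Intervals of light against control covered the true ratio in 96.5% to 97.3% of cases. In a simulated control library 69.5% of genes were solved exactly, and the columns per molecule came to 83.4 against a true 84.5. The median-of-ratios factors used 551 genes with a count in all libraries. Names matched GENCODE M21 (mm10) for 10136 of 10291 genes, the source of coordinates and transcripts. The tools were blastn 2.17.0 and, in Python 3.11.15, scipy 1.17.1, numpy 2.4.6, matplotlib 3.10.9 and pandas 2.3.3. The sequence and position of Mir6236 are not reported here. A pooled sample with a barcode sheet was not used here.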

Additional observations from a re-analysis of the deposited data

Results flagged for a closer look

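The light over control ratio of Malat1 was positive in the colon (2.05) and negative in the lymph node (-0.37), a difference of 2.42 on the log2 scale. The colon control value rests on 11.1 molecule-equivalents, and the median ratio of all genes tested was 2.18 in the colon and -0.16 in the lymph node. The filter for the genes tested favours those high in the deeper library, which in the colon is the light one. The values of Snord49b lie on opposite sides too, but its direction in the lymph node is not resolved: it was listed at 0 in the colon control with 34 molecules in the colon light library, and had 3 molecules in the control and 1 in the light library of the lymph node, a ratio of -2.02 with an interval that includes 0 (-8.21 to 0.94). Neither difference was tested, since each group has 1 library.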

How the results depend on the processing

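Of 106 ratios of members under other settings, 95 stayed within the counting interval, 11 moved outside it and 0 of the called values turned direction. The summed share of the 6 RNAs was 34.6% in the colon light and 17.7% in the lymph node light library with mitochondrially encoded genes left out of the totals. As a median over barcode columns it was 29.3% in the colon after light, and in the lymph node 15.2% in the control and 14.6% after light. By fitted molecules, a setting chosen after seeing the data, it was 30.5% in the colon and 16.4% in the lymph node after light. The column median thus puts the lymph node control above the lymph node light library. The shift of the other genes, for the lymph node, the colon, the controls and the light libraries, was 0.080, 0.41, -0.085 and 0.24 with CT010467.1 alone left out, and -0.031, -0.24, 0.24 and 0.032 with Gm12374 alone left out. Without mitochondrial genes it was 0.23 in the colon and 0.33 between the light libraries. Genes past 2-fold, in the same order, numbered 21, 187, 86 and 100 as reported, 4157, 5451, 4616 and 5389 without a filter, 4, 25, 12 and 5 with at least 100 molecule-equivalents, and 5381, 7316, 4935 and 6543 with deposited sums taken as raw counts, where each molecule is counted many times. Counting each recovered molecule once over exactly solved genes was not run, because the rows of CT010467.1, Gm12374 and Malat1 were not solved exactly. No paired analysis was possible because each group has 1 library. Depth limits Mir6236, Snord49b and Gm23935 most, and the colon control in general.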
